A study of Homo sapiens with 6 samples.

Results

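The FOS and JUN genes encode the subunits of AP-1, a dimeric transcription factor. The members were the entries of the count table whose symbol was FOS, FOSB, FOSL1, FOSL2, JUN, JUNB or JUND. All 7 were present among 19201 entries, and all 7 passed the filter on low counts that left 19101 entries for testing. The libraries came from H1299, a long-established cell line of human non-small cell lung carcinoma. The control group was 3 wild-type libraries, and the other group was 3 libraries of H1299 with overexpressed lncBCAS1-4_1, a long non-coding RNA. The labels name no vector, promoter or clone for either group. What the procedure of overexpression does to the cells and what the RNA does therefore cannot be told apart. Nothing in the labels ties the replicates to independent cultures, so the tests see only the variation among these libraries, and that variation may be technical.

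AP-1 proteins are basic leucine zipper factors. FOS proteins bind DNA only as heterodimers, mostly with JUN proteins, while JUN proteins also pair with one another. FOS, FOSB, JUN and JUNB are immediate early genes, transcribed within minutes of serum, growth factors or stress without new protein synthesis. Their RNAs are short-lived. FOSL1 and FOSL2, which encode FRA-1 and FRA-2, are induced later and persist. FRA-1 is often abundant in invasive carcinoma cells and in cells with an active RAS pathway, and H1299 carries a mutant NRAS.

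Library totals lay between 84531039 and 92780032 counts. CYP24A1, named in the series title beside the RNA, served as a check of the labels. Its control level was 0.778 ± 0.158 CPM (counts per 1000000 library counts), and overexpressing libraries held 2908 ± 591 CPM (SD, n = 3 each). No entry named for lncBCAS1-4_1 was analysed here. Of the markers fixed for the line, the keratins KRT8 and KRT18 were at 368 ± 18 and 956 ± 71 CPM in the controls and the lung factor NKX2-1 at 0.674 ± 0.140 CPM, while CDH1 and EPCAM were not analysed here. Among markers of other cells, 2 of 3 endothelial genes summed to at most 0.901 CPM and 2 of 4 fibroblast genes to at most 2.47 CPM in any library. For leukocytes 2 of 5 markers were in the table, among them CD68, a lysosomal protein of many cell types, at 71.9 ± 2.1 CPM in the controls (SD, n = 3). In bulk RNA, fewer cells with a transcript and less transcript per cell cannot be told apart.

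As fitted, 5 of 7 members were higher in the overexpressing cells and 0 of 7 were lower at an adjusted p under 0.05 in edgeR's quasi-likelihood test. Over all 19101 entries the same rule called 18.3% higher and 19.7% lower, 38.0% in all. With limma-voom 1 member, FOSL1, was called lower (20.1% of all entries) and with DESeq2 0 were (20.6%). At an unadjusted p under 0.05 in edgeR 1 member, again FOSL1, was lower, as were 23.7% of all entries. By the criterion in the labels, at least 2-fold with an unadjusted p under 0.05, 2 members were higher (FOS and FOSB), where 1.77% of all entries were. Between the groups 6 of 7 members did not overlap in CPM, against 50.7% of all entries. The steepest rises were in members that were scarce in the controls, FOSB and FOS, followed by JUNB and FOSL2. The most abundant member, FOSL1, was not among them.

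Fold changes in these libraries followed the GC content of the transcripts. Across 10128 entries with a mean log2 CPM above 3, which are not independent replicates, the Spearman correlation between GC content and log2 fold change was 0.721. With these entries in 4 equal bins of GC content, 2532 in each, the top bin ran from 56.6% to 74.4%, and there 64.5% of entries were called higher and 2.13% lower. FOSL1, JUNB and JUND lie in that bin and FOSL2 and JUN in the next, from 48.3% to 56.6%, where 39.4% were higher and 10.8% lower. FOS and FOSB were under the level limit. With GC and length effects removed library by library, called the correction below, the correlation was 0.021. It left 4 members higher (FOS, FOSB, FOSL2 and JUNB) and 2 lower (FOSL1 and JUN), where 11.2% of all entries were called higher and 11.7% lower. The correction also removes any change of expression that follows GC content or length, and whether the trend is technical was not tested. Corrected values stand beside each member below.

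The promoters of the early members are shown because FOS, FOSB and JUNB rose both as fitted and corrected. Those of JUN, also an early member, and JUND are shown too, and neither gene rose in both. The RefSeq table for GRCh38.p14 matched 6 of the 7 members, all but FOSL1. Each window ran from 250 bases before the start to 50 after, and the start is base 0. Both strands were searched for the cyclic AMP response element TGACGTCA and for its shorter core TGACG, which the longer motif contains. The AP-1 site TGACTCA or, with the central base exchanged, TGAGTCA was searched as 1 motif. The variant TGACATCA, the box TATAAA and the CArG box, the site of serum response factor, were the others. Capitals mark the matches, each line is 140 bases read 5′ to 3′ on the gene's strand, and FOSL2 is not printed because its window overlaps an annotated untranslated region.
FOS, chr14:75278678-75278817, plus strand: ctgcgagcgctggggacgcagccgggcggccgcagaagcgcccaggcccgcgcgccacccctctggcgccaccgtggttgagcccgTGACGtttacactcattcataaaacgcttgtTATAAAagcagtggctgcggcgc
FOSB, chr19:45467846-45467985, plus strand: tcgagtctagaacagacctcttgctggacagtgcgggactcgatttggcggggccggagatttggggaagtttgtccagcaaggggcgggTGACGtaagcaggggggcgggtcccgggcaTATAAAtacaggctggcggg
JUNB, chr19:12791336-12791475, plus strand: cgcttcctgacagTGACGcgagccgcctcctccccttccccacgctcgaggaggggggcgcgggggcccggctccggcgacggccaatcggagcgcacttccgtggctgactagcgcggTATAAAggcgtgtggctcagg
JUN, chr1:58784058-58784197, minus strand: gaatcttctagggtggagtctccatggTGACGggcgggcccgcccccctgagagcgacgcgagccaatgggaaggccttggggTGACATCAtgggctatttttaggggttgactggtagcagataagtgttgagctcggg
JUND, chr19:18281693-18281832, minus strand: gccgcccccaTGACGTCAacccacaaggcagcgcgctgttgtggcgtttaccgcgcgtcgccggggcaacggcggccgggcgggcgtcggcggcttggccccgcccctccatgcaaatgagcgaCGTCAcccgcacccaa
All 6 windows held TGACG on at least one strand, as did 24.6% of 35116 windows of the same length. TATAAA was present in FOS from base -33, in FOSB from -30 and in JUNB from -31, and was in 11.5% of all windows. JUN held TGACATCA at -67 to -60 (2.61% of all windows) and JUND TGACGTCA at -200 to -193 (1.85%). FOSL2 held TGACTCA at bases 4 to 10 (4.95%). The CArG box was in none of the 6 windows and in 1.29% of all. Sites more than 250 bases before the start were not searched, so a CArG box further upstream would be missed.

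FOS, the founding member of its family, was counted 226, 203 and 191 times in the controls and 548, 791 and 601 times in the overexpressing libraries. In CPM these were 2.54, 2.15 and 2.13 against 6.49, 9.48 and 6.68. Every overexpressing library lay above every control, and overexpressing library 2 was the highest. Mean levels were 2.27 ± 0.23 and 7.55 ± 1.67 CPM (SD, n = 3 each), which is 3.33-fold higher (log2 fold change 1.73, SE 0.18, adjusted p = 0.00025). Corrected, the log2 fold change was 1.54 (adjusted p = 0.00041). The gene (ENSG00000170345) spans 75278826 to 75282230 of chromosome 14, plus strand (GRCh38, GENCODE 44), with 4 exons in its canonical transcript.

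FOSB encodes a protein close to FOS and, by splicing, the truncated and stable ΔFosB, which gene counts cannot separate. It was the scarcest member, with 53, 22 and 53 counts in the controls and 143, 229 and 192 in the overexpressing libraries. The levels were 0.595, 0.232 and 0.590 CPM against 1.69, 2.74 and 2.14 CPM. The groups did not overlap, and control 2 was the low one among the controls. FOSB had the largest fold among the members at 4.64, with a log2 fold change of 2.21, a 95% interval from 1.40 to 3.02 and an adjusted p of 0.0014 (2.02 after the correction, adjusted p = 0.0033). FOSB (ENSG00000125740, chromosome 19, 45467995 to 45475179, plus strand) lies within the span of ERCC1 on the opposite strand, without sharing bases of its canonical exons.

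FOSL2, the gene of FRA-2, was even among the controls at 62.7, 63.4 and 63.4 CPM. The overexpressing libraries stood at 95.2, 104.6 and 94.8 CPM, all above the controls. FOSL2 rose 1.55-fold (log2 fold change 0.64, SE 0.05, adjusted p = 7.2e-05). The corrected log2 fold change was 0.65, the smallest shift among the members. FOSL2 (ENSG00000075426) spans 28392448 to 28417317 on the plus strand of chromosome 2.

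FOSL1, the gene of FRA-1, was by far the most abundant member. Its levels were 677, 674 and 675 CPM in the controls and 657, 626 and 592 CPM in the overexpressing libraries. The controls were very even (SD 1.78 CPM, n = 3), and each overexpressing library lay below them. The log2 fold change was -0.11 with a 95% interval from -0.21 to -0.012, which did not pass as fitted (SE 0.04, adjusted p = 0.075). Corrected, FOSL1 passed as lower, with a log2 fold change of -0.43 (SE 0.03, adjusted p = 6.3e-05). It also passed as lower with library size alone (-0.16, adjusted p = 0.00601), with limma-voom (-0.11, adjusted p = 0.047) and without overexpressing library 1 (-0.15, adjusted p = 0.021). FOSL1 (ENSG00000175592) spans 65892049 to 65900573 on the minus strand of chromosome 11.

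**Figure D1:**
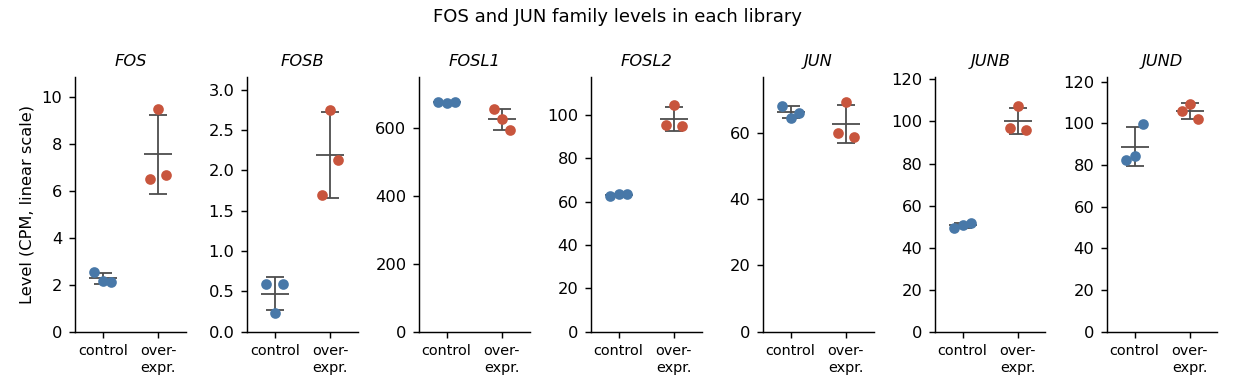
Levels of the 7 members in each library in CPM, on a linear scale from 0 that differs between panels. Points are libraries, horizontal bars the group mean and error bars the SD (n = 3). FOS, FOSB, FOSL2 and JUNB lie higher in every overexpressing library than in any control, and so, narrowly, does JUND (101.9 against 99.8 CPM). FOSL1 lies lower in every overexpressing library, and JUN overlaps.

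JUNB, which pairs with FOS proteins and often acts against JUN in growth control, had the smallest p among the members. Its levels were 49.2, 50.7 and 51.7 CPM in the controls and 97.0, 107.2 and 96.0 CPM in the overexpressing libraries. The groups were far apart relative to their spread. JUNB rose 1.98-fold (log2 fold change 0.99, SE 0.05, adjusted p = 1.6e-05), and the corrected value was 0.64 (adjusted p = 6.3e-05). JUNB (ENSG00000171223) is a single-exon gene on the plus strand of chromosome 19 from 12791486 to 12793315, and 259 bases of it are also exon of HOOK2 on the opposite strand. HOOK2 stood at 16.5 ± 1.2 and 22.4 ± 1.2 CPM (SD, n = 3 each). The strandedness of the libraries is not given in the sources used here, so reads of that stretch cannot be assigned to one of the pair.

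JUN encodes c-Jun, the main target of the JNK kinases. Its levels were 68.2, 64.5 and 66.0 CPM in the controls and 59.9, 69.1 and 58.6 CPM in the overexpressing libraries. The groups overlapped, since overexpressing library 2 was the highest of the 6. The log2 fold change was -0.083 with a 95% interval from -0.23 to 0.065 (adjusted p = 0.37). JUN passed as lower after the correction (-0.29, SE 0.05, adjusted p = 0.0046) and without overexpressing library 2 (-0.16, adjusted p = 0.046). JUN (ENSG00000177606), with 1 exon in its canonical transcript, spans 58776845 to 58784048 on the minus strand of chromosome 1.

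JUND, the member least dependent on growth signals, was at 82.5, 84.2 and 99.8 CPM in the controls and 106.1, 109.4 and 101.9 CPM in the overexpressing libraries. Control 3 stood close to the lowest overexpressing library. As fitted JUND was 1.19-fold higher (log2 fold change 0.25, SE 0.07, adjusted p = 0.021), but the corrected value was -0.074 (adjusted p = 0.24). The call was also lost without control 1, control 2, overexpressing library 1 or overexpressing library 2, with adjusted p from 0.063 to 0.086. JUND (ENSG00000130522) is a single-exon gene that spans 18279694 to 18281622 of chromosome 19, minus strand. Its transcript is 69.9% GC, the highest of the members, which ranged from 52.8% in FOS.

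**Figure D2:**
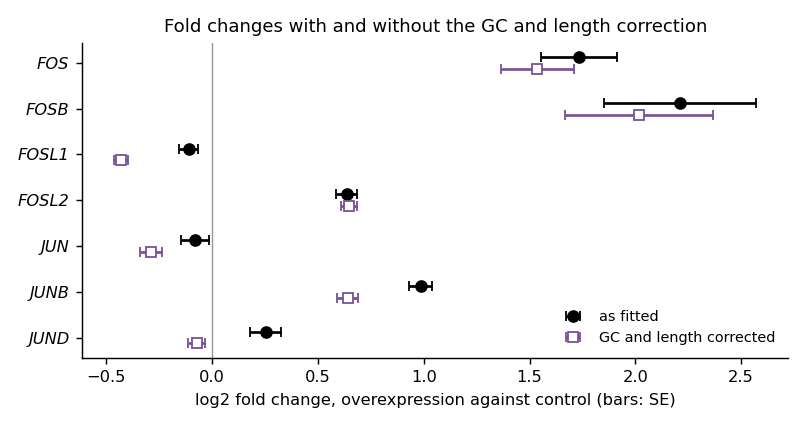
Log2 fold change of each member, overexpression against control, as fitted (filled circles) and after the GC and length correction (open squares), with SE. FOS, FOSB, FOSL2 and JUNB stay to the right of 0 in both, JUND moves from 0.25 to -0.074, and FOSL1 moves from -0.11 to -0.43.

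**Figure D3:**
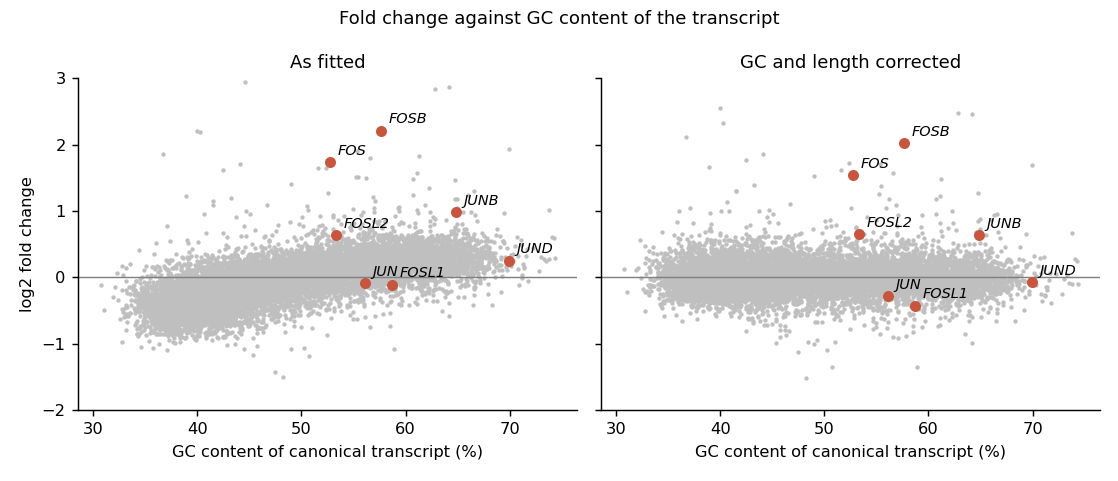
Log2 fold change against GC content of the canonical transcript for 10128 entries with a mean log2 CPM above 3 (grey) and for the 7 members (labelled), as fitted and after the correction. The grey cloud slopes up in the first panel and is level in the second; 8 and 9 entries lie outside the vertical axis.

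Levels of different genes were compared per kb of canonical transcript. In the controls FOSL1 led with 397 ± 1 CPM per kb, followed by JUND with 46.1 ± 5.0, JUNB with 27.6 ± 0.7 and JUN with 20.3 ± 0.6 CPM per kb (SD, n = 3 each). FOSL2 had 9.41 ± 0.06, FOS 1.08 ± 0.11 and FOSB 0.125 ± 0.055 CPM per kb. No neighbours in this order overlapped among the controls. In the overexpressing libraries the order of the means was the same, but JUNB at 54.7 ± 3.4 and JUND at 54.9 ± 1.9 CPM per kb overlapped. FOSL1 made up 79.1 ± 0.9% of the summed level per kb of the 7 genes in the controls and 71.3 ± 1.4% in the overexpressing libraries (SD, n = 3 each). JUNB went from 5.51 ± 0.11% to 10.6 ± 0.6% of that sum, while FOS and FOSB stayed under 1% in every library. These shares rest on one transcript length per gene.

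Ratios within a library do not depend on the scaling between libraries. The summed level per kb of the FOS genes over that of the JUN genes was 4.51, 4.45 and 4.06 in the controls and 3.19, 2.85 and 2.97 in the overexpressing libraries. The FOS sum was mostly FOSL1. Without FOSL1 it went from 10.6 ± 0.1 to 18.8 ± 1.7 CPM per kb, and the JUN sum from 94.0 ± 5.4 to 129 ± 7 (SD, n = 3 each). The other FOS genes together therefore rose relative to the JUN genes, and the lower family ratio reflects FOSL1. FOSL1 over FOSL2 was 42.6, 41.9 and 42.0 against 27.2, 23.6 and 24.6. JUNB over JUN was 1.28, 1.40 and 1.39 against 2.88, 2.76 and 2.92, so per kb JUNB led in each library and its lead widened. In CPM, without division by length, JUN was the higher in the controls (means 66.2 and 50.5 CPM). JUNB was the higher in the overexpressing libraries (100.1 and 62.5 CPM), so that order rests on the lengths used. None of these ratios overlapped between groups, and they are given without a test. The share of all gene pairs without overlap was not counted. The log2 ratio of FOSB over FOS in CPM did overlap, at -3.21 to -1.85 in the controls and -1.94 to -1.65 in the overexpressing libraries. Expressed as a difference of log2 fold changes, JUNB moved against JUN by 1.07 as fitted and 0.93 corrected, JUNB against JUND by 0.73 and 0.71, and FOSL1 against FOSL2 by -0.75 and -1.08. The contrasts of JUNB kept most of their size under the correction, and that of FOSL1 against FOSL2 grew.

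**Figure D4:**
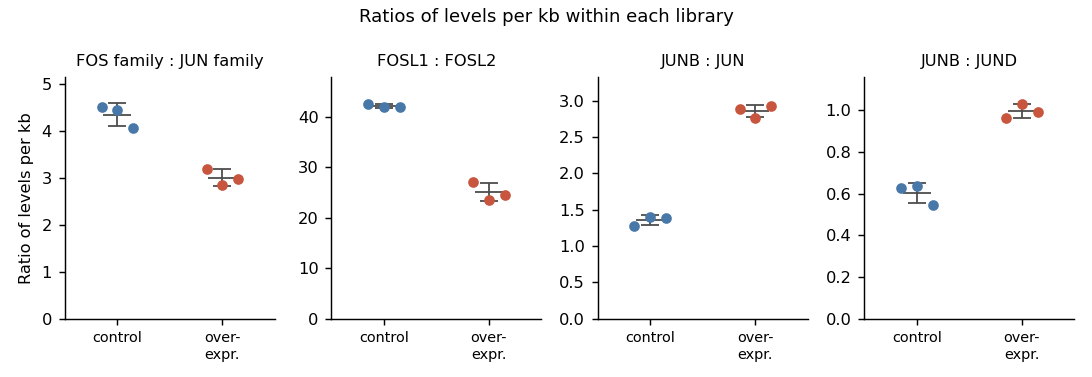
Ratios of levels per kb in each library, on linear axes from 0, with the group mean and SD (n = 3). FOS family over JUN family and FOSL1 over FOSL2 are lower in each overexpressing library than in any control, and JUNB over JUN and JUNB over JUND are higher. The FOS family sum is mostly FOSL1, and the other FOS genes together rose relative to the JUN genes.

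In 6 of 7 members overexpressing library 2 was the highest of its group, FOSL1 being the exception. The share of all entries highest in that library was not counted, so a shift of the whole library cannot be told apart. CYP24A1 was highest in the same library, at 3587 CPM against 2513 and 2623 CPM. Without that library FOS, FOSB, FOSL2 and JUNB still passed as higher. No entry for the overexpressed RNA was analysed, so its amount in each library is not known here. Whether that amount bears on the family was not tested.

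RNA turnover is part of the biology of this family: AUUUA pentamers in the 3′ untranslated region recruit decay factors of the ZFP36 group. The canonical transcripts held 9 ATTTA pentamers in FOSL2 (over 4869 bases), 5 in FOS (806), 3 each in FOSB (2167) and JUN (1284), 2 in JUNB (500) and 1 each in FOSL1 (837) and JUND (747). Among 12 genes of RNA decay and protein turnover 2 rose, 5 fell and 5 were not called. Beside the counts of this list and those below, 18.3% of all entries were higher and 19.7% lower as fitted. Corrected, these shares were 11.2% and 11.7%. ZFP36L1 rose 1.18-fold and ZFP36, which destabilises AU-rich RNAs, 1.24-fold. The deadenylase scaffold CNOT1 fell by 0.46 and the ubiquitin ligase ITCH, which targets JUN proteins, by 0.78 on the log2 scale. After the correction ZFP36 (0.0099) no longer passed, and CNOT1 (-0.15), ITCH (-0.33) and ZFP36L1 (0.18) did.

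The list of dimer partners and antagonists held genes whose products pair with FOS or JUN proteins, or compete with them. Of 11 tested 6 rose and 2 fell, with a median log2 fold change of 0.40 where the median of all entries was -0.0041. Corrected, 5 were higher and 0 lower, with a median of 0.13. ATF3, a stress-induced partner of JUN, rose 3.55-fold from 3.49 ± 0.26 to 12.4 ± 1.4 CPM (SD, n = 3 each; corrected log2 fold change 1.69). MAFK, a small MAF protein without an activation domain, rose 1.48-fold (corrected 0.30). JDP2, which represses AP-1 as a dimer with JUN, rose 2.51-fold, MAFF 2.07-fold and MAFG 1.32-fold. For ATF4, a stress-response partner, the change was 0.13 on the log2 scale (adjusted p = 0.033) and -0.10 corrected, where it did not pass. JDP2, MAFF, MAFG and ATF4 were named after their values were seen. ATF2 and CREB5 fell by 0.31 and 0.61 on the log2 scale, but after the correction they stood at 0.063 and -0.12 and did not pass.

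Kinases that drive FOS and JUN transcription or phosphorylate the proteins were listed with the small GTPase NRAS, and the list is called kinases below. Its 16 genes moved in both directions, with 4 higher and 8 lower. The MAP kinase kinases MAP2K2 and MAP2K7 rose 1.23-fold and 1.20-fold, and NRAS and the JNK kinase gene MAPK9 had log2 fold changes of -0.60 and -0.47. In the corrected fit 1 was higher and 5 lower, and 0 of the 4 higher as fitted were called higher. The 1 that was, RPS6KA5, named after its values were seen, had a log2 fold change of -0.31 as fitted (adjusted p = 0.056) and 0.33 corrected (adjusted p = 0.038). MAP2K2 (-0.051) and MAP2K7 (0.0042) then did not pass, NRAS (-0.23, adjusted p = 0.0017) and MAPK9 (-0.22, adjusted p = 0.0083) did, and 4 of the 8 lower as fitted were among the 5.

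All 13 factors known to act on FOS and JUN promoters were called as fitted, 5 higher and 8 lower, and 3 and 2 after the correction. SRF, which binds the CArG box, rose 1.28-fold from 125 ± 2 to 159 ± 6 CPM, and MEF2D, which acts on the JUN promoter, 1.41-fold (SD, n = 3 each). ELK3, an SRF partner that can repress FOS, went from 126 ± 10 to 69.6 ± 5.6 CPM (log2 fold change -0.86), and the SRF coactivator MRTFB fell by 0.70 on that scale. All of these passed after the correction, at 0.15, 0.41, -0.63 and -0.36.

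Among genes known as AP-1 targets in other cells, 10 of 21 rose, 3 fell and 8 were not called, and the corrected counts were 9 and 3. Of the 10 that rose, 6 were among the 9. The metallothionein MT2A rose 1.68-fold, from 238 ± 9 to 400 ± 25 CPM, and the urokinase PLAU 1.32-fold, from 451 ± 5 to 593 ± 20 CPM (SD, n = 3 each). Among those that fell, the cyclin CCND1 fell by 0.23 on the log2 scale. HMGA1, named after its values were seen, fell by 0.26 (corrected -0.59). MMP1, the classical collagenase target, also named after its values were seen, was at 3.07 ± 0.04 and 2.75 ± 0.65 CPM with a log2 fold change of -0.16 (adjusted p = 0.55). IL6, MMP3 and EREG were not analysed here.

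The other immediate early genes rose in 13 of 17 cases, with 1 lower and a list median of 0.68 in log2 fold change (corrected: 12, 0 and 0.51). The nuclear receptor NR4A2 rose 5.38-fold, from 2.19 ± 0.20 to 11.8 ± 1.5 CPM, and GADD45B, a stress adaptor that went from 39.6 ± 0.6 to 69.4 ± 3.4 CPM, rose 1.75-fold (SD, n = 3 each). KLF6 fell by 0.24 on the log2 scale and did not pass after the correction (-0.090). These genes also respond to medium change and handling of cultures. No label records handling, and its part in the values of FOS, FOSB, JUN and JUNB was not tested.

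**Figure D5:**
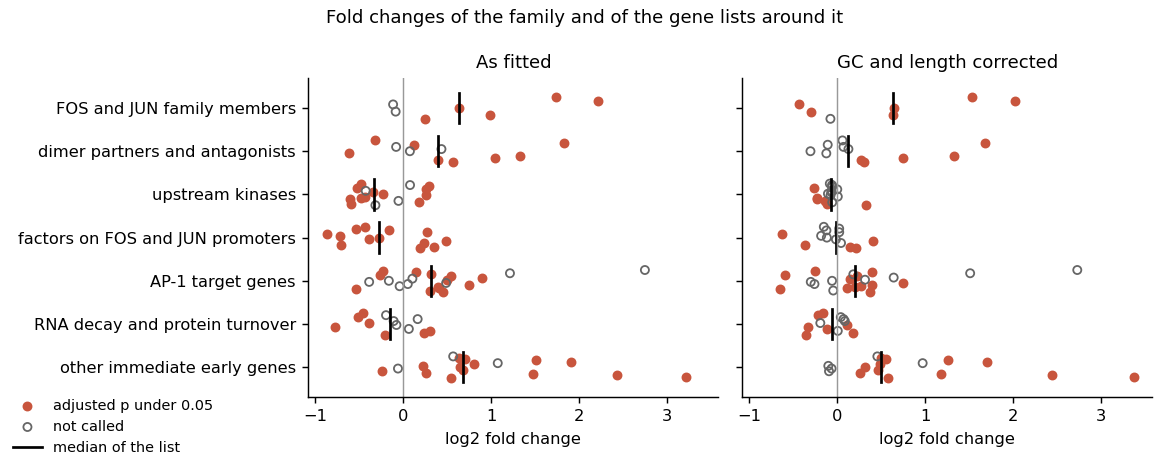
Log2 fold changes of the 7 members and of 6 gene lists, as fitted and after the GC and length correction. Filled points passed an adjusted p of 0.05, open points did not, and black bars are list medians; the medians of the kinase and promoter factor lists, at -0.33 and -0.27 as fitted, move close to 0 after the correction, while that of the immediate early genes is 0.68 and 0.51.

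The entries with the profile nearest to each member were found among genes with a mean log2 CPM of at least 3, by the Euclidean distance of log2 CPM over the 6 libraries centred on each gene's mean. The libraries, their depth and the GC trend are shared by all genes. Nearest to FOS were CHAC1 (distance 0.351) and GRAMD1B (0.382), and to FOSB C15orf48 (1.13) and EGR1 (1.16). JUNB lay nearest to PLA2G4C (0.0869) and MVD (0.0956), and FOSL2 to FDFT1 (0.0808) and CREM (0.0863). FOSL1 lay nearest to NUP37 (0.0414) and ALDH1B1 (0.0482), JUN to CGN (0.0434) and CLCC1 (0.0647), and JUND to ZFAT (0.0389) and MOV10 (0.0564). Distances of FOSB were the largest, and FOSB also had the fewest counts.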

How the data were processed

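The authors deposited 1 table of unnormalized whole-number counts per gene. Per the labels' protocols, they used fastp for trimming, HISAT2 for alignment to GRCh38 and StringTie for assembly and expression. Not given in the sources used here are versions, library kit, strandedness and the counting step. Groups followed the labels. Counts were tested with edgeR 4.0.16 (R 4.3.3; TMM, filterByExpr with min.count 10 and min.total.count 15, quasi-likelihood F-test on the group), with Benjamini-Hochberg adjustment over 19101 entries and a threshold of 0.05. CPM use TMM-scaled library sizes, and SEs were derived from the fold change and its F statistic. The correction entered splines (5 degrees of freedom) of GC content and log2 length of the GENCODE 44 canonical transcript as offsets, fitted on entries with a mean log2 CPM above 3. GC content was known for 99.3% of tested entries.

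On simulated data of 19101 genes with 100 changed 2-fold and 100 changed 1.5-fold, the test recovered 91% and 70% with 20 false calls. The changed genes were drawn from entries with a mean log2 CPM above 2, so these rates do not cover genes as scarce as FOSB. With a GC trend added, false calls were 4619, and 21 after the correction. The added trend was linear in GC content and the same in all simulated overexpressing libraries, a form that the correction can fit. The simulation therefore does not show whether the trend in the data is technical.

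The members and lists were chosen with earlier results of these data known. Named genes were the members, CYP24A1, up to 2 rising and 2 falling genes of each of 6 lists by smallest p, and the 2 nearest profiles of each member. Some genes that the rule or the marker lists name are not reported here. An entry whose symbol and ID name different genes in GENCODE enters no list; none was a member. Libraries of a group differed beyond counting noise (chi-square over degrees of freedom, 11.4 to 22.2). Alternatives were other scalings, filters and tests (DESeq2 1.42.0, limma-voom of limma 3.58.1), the correction, a replicate block, the 2-fold criterion of the labels and leaving out each library.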

Additional observations from a re-analysis of the deposited data

How the results depend on the processing

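FOS and FOSB kept their direction and call under every alternative in which they were tested, with log2 fold changes from 1.52 to 1.83 and from 1.88 to 2.41; FOSB did not pass the filter at a mean log2 CPM of 1. FOSL2 (0.587 to 0.66) and JUNB (0.64 to 1.01) did so except under the 2-fold criterion. JUND turned to -0.0736 with the GC and length correction and to -0.0732 when the replicate block was added to it. ATF2 then turned to 0.063 and 0.0598, and MAP2K2 to -0.051 and -0.0509. For other named genes the cause of a lost call was not tested.

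No member was lower as fitted, 1 was with library size alone or limma-voom, and 2 were with the correction, with or without the block. Leaving out 1 library gave 0 to 1 lower (1 without overexpressing library 1 or 2) and 4 to 5 higher. Over all entries the same left-out libraries gave 2867 to 3730 lower and 2586 to 3439 higher, and library size alone 4274 lower and 2908 higher. Under the 2-fold criterion 2 members, FOS and FOSB, were higher. With the correction 2130 of all entries were higher and 2236 lower, 1671 and 1684 with the block added, and 338 and 226 under the 2-fold criterion.

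With the correction the lists changed as follows. Dimer partners had 0 lower, with or without the block. Kinases had 1 higher and 5 lower, and 0 and 3 with the block. Promoter factors had 3 higher and 2 lower, the same with the block. AP-1 targets had 6 higher and the turnover list 1 higher with correction and block together, and other immediate early genes 0 lower in both fits. With the block alone kinases had 2 higher and promoter factors 3. Library size alone gave 2 kinases higher and 8 turnover genes lower. Leaving out 1 library gave 2 to 4 kinases higher (2 without control 1, control 2, overexpressing library 1 or overexpressing library 2) and 3 to 5 promoter factors higher (3 without control 1). Under the 2-fold criterion 3 dimer partners, 1 AP-1 target and 5 other immediate early genes were higher, and the remaining list counts were 0.

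The labels number the replicates 1 to 3 in both groups. Deviations of same-numbered libraries from their group means correlated at -0.034, -0.276 and -0.281, which gave no sign of pairing. With deviations centred within groups of 3, these values cannot show whether same-numbered libraries shared a batch or culture. The replicate block gave 2681 entries higher and 3014 lower and changed no member's call. FOSB, with 22 to 53 counts in the controls, is the member whose value depth limits most.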
